A study of Homo sapiens with 9 samples.

Results

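The aminoacyl-tRNA synthetases attach each amino acid to its tRNA and so supply every ribosome of the cell with its substrate. The 37 genes described here were taken from the 60605 genes of the deposited table by their symbols, that is, all symbols made of a letter, ARS and an optional 1 or 2, with EPRS1, FARSA and FARSB. Names ending in 2 were taken as the mitochondrial class (17 genes) and all others as the cytosolic class (20 genes). The rule itself used symbols only, but it was chosen with earlier results of these data known. All 37 passed the filter on low values, 0.1 FPKM on average over all libraries. FPKM is the count of read fragments of a gene scaled to the length of its exons and to the library's total.

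Levels were measured by RNA-seq of poly(A)+ RNA in TE13, an established human esophageal squamous cell carcinoma (ESCC) line. Cells had received either of PARylator siRNA.1 and PARylator siRNA.2, or else control siRNA, with 3 libraries in each of the 3 groups, which the series describes as biological replicates. PARylator is the lncRNA LINC00885, and both siRNAs were designed against it. All groups are a single line under transient transfection and differ only in the siRNA, and both knockdown groups are set against the same 3 control libraries, so their results share those controls.

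In human cells, cytosolic and mitochondrial synthetases are encoded in the nucleus, mostly by separate genes, and GARS1 and KARS1 each supply both compartments from a single gene. Part of the cytosolic enzymes sit in a multi-synthetase complex with the scaffolds AIMP1, AIMP2 and EEF1E1, while the rest act as free enzymes. When amino acids run short or the endoplasmic reticulum is stressed, the transcription factor ATF4 raises many cytosolic synthetase genes together with genes of amino acid synthesis and uptake.

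The targeted RNA was scarce, which limits the check of the knockdown. LINC00885 had 6, 7 and 12 counts in the controls, 4, 5 and 2 under siRNA.1 and 2, 0 and 4 under siRNA.2. The fitted log2 fold change was -1.21 (adjusted p = 0.37) under siRNA.1 and -2.33 (adjusted p = 0.0624) under siRNA.2, and neither passed the edgeR quasi-likelihood test. Libraries held between 15337917 and 22559998 counts on genes. Squamous markers were present in every group, all 9 at a mean of at least 1 FPKM, with a summed level of 950 to 970 FPKM in the controls, 752 to 783 under siRNA.1 and 744 to 762 under siRNA.2. The 8 markers of blood cells summed to 5.16 to 5.97 FPKM in the controls, 6.97 to 7.90 under siRNA.1 and 6.82 to 7.88 under siRNA.2. They did not move together. LAPTM5, the highest of them in the controls, was at 4.83 to 5.09 there and at 2.27 to 3.45 in the knockdown libraries. LYZ was at 0.07 to 0.49 in the controls and 2.61 to 3.32 in the knockdown libraries, and FCER1G at 0.07 to 0.27 and 1.01 to 1.62. MS4A1 was at 0 in every group. The 6 fibroblast markers summed to 2.23 to 2.49, 1.46 to 1.64 and 1.5 to 1.72 FPKM, and the 4 endothelial markers to 1.20 to 1.54, 0.630 to 0.890 and 0.420 to 0.550. Genes of the mitochondrial genome took 7.46% to 7.66% of the counts in the controls, 4.99% to 5.06% under siRNA.1 and 5.54% to 5.56% under siRNA.2. The part of these shifts in the values below was not tested.

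Most transcripts of the cytosolic synthetases rose with both siRNAs. Of the 17 mitochondrial synthetases, 13 did not pass the test under siRNA.1 and 10 did not under siRNA.2. Most of all genes tested did not pass either, as 30.3% and 30.9% did. Under siRNA.1, 15 of 20 cytosolic genes rose and 1 fell, where of the 21397 genes tested 15.1% rose and 15.2% fell, 30.3% in either direction. Under siRNA.2, 18 of 20 rose and 1 fell, against 15.8% and 15.2% of all genes, 30.9% in either direction. The same 15 cytosolic genes rose with both siRNAs (11.0% of all genes did), and QARS1, the glutaminyl-tRNA synthetase, fell with both (10.2% of all genes did). Of the 17 mitochondrial genes, 2 rose and 2 fell under siRNA.1, and 6 rose and 1 fell under siRNA.2. Under siRNA.1 these shares were near the 15.1% and 15.2% of all genes. Under siRNA.2 the share that rose was above the 15.8% of all genes, a description for which no test was made. The mitochondrial genes were less abundant, with a control median of 6.20 against 26.9 FPKM for the cytosolic class. A change of a given size was therefore harder to call in many of them. The median log2 fold change of the cytosolic class was 0.30 under siRNA.1 and 0.37 under siRNA.2, that of the mitochondrial class -0.03 and 0.02, and that of all genes tested -0.0005 and 0.004. Without the genes that share at least 4% of their exonic bases with a gene on the opposite strand, the cytosolic medians were 0.20 and 0.34 and the mitochondrial ones -0.10 and -0.0248. Tests are edgeR's quasi-likelihood test with Benjamini-Hochberg adjustment over all genes, at a threshold of 0.05. In a bulk sample a change in the RNA of each cell and a change in the number of cells that hold it cannot be told apart.

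**Figure D1:**
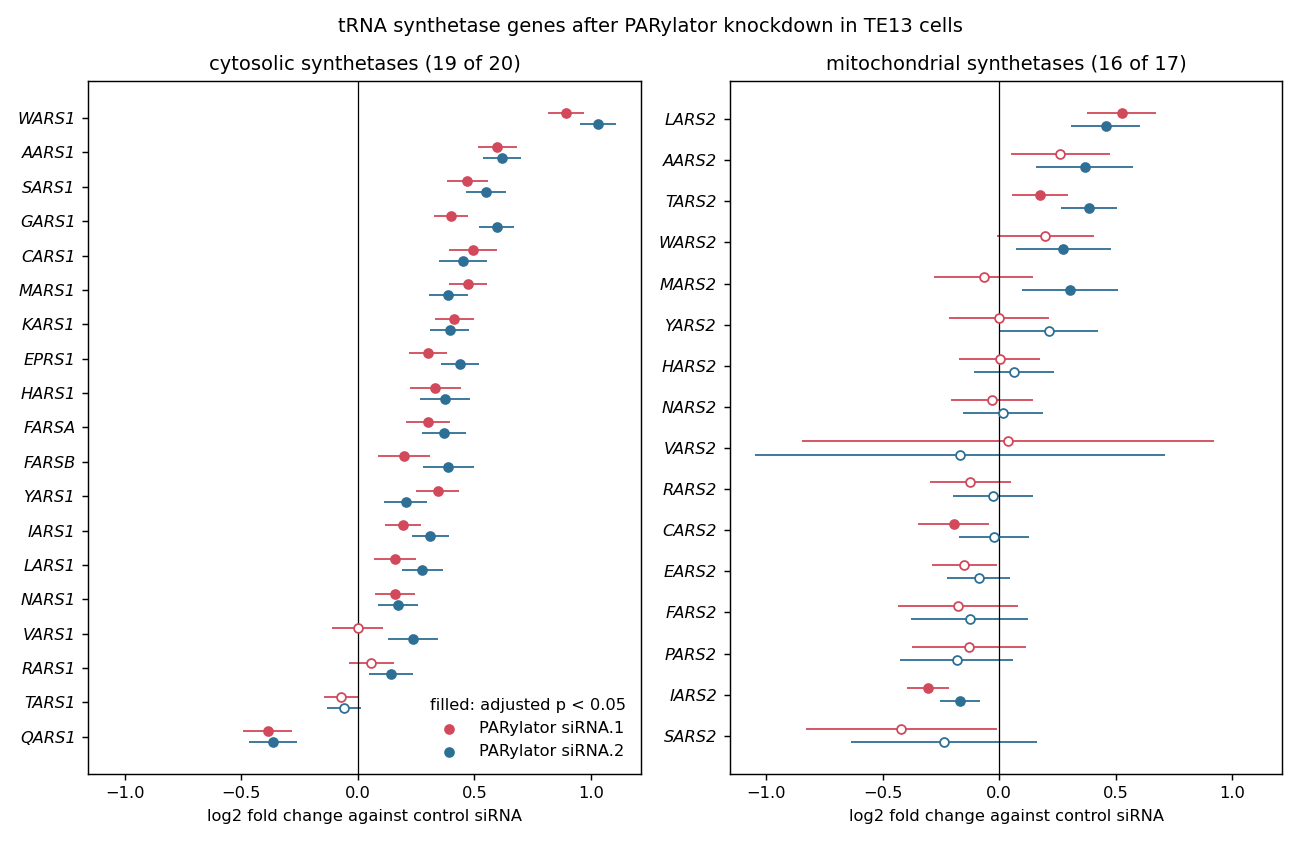
Fitted log2 fold change of 19 of 20 cytosolic and 16 of 17 mitochondrial synthetase genes against control siRNA (x axis) with its 95% interval, for PARylator siRNA.1 and PARylator siRNA.2, in the cytosolic class (left) and the mitochondrial class (right); filled points passed at an adjusted p under 0.05. WARS1 lies farthest to the right at 0.89 and 1.03, QARS1 is the only cytosolic gene with filled points left of 0, and most mitochondrial points are open and close to 0.

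Among the free cytosolic enzymes, 10 of 12 rose under siRNA.1 and 11 of 12 under siRNA.2, where 15.1% and 15.8% of all genes rose. None of the 12 fell by edgeR, and none did at an unadjusted p under 0.05, with DESeq2 or with limma. The largest change of all members was that of WARS1 (ENSG00000140105, chromosome 14, 100333790 to 100376805, minus strand, in GRCh38), the tryptophanyl-tRNA synthetase, which is known to be induced by interferon as well as by ATF4. WARS1 stood at 49.3, 47.4 and 46.9 FPKM in the controls, 89.3, 92.4 and 89.8 under siRNA.1 and 99.9, 98.7 and 96.9 under siRNA.2. All 6 knockdown libraries lay above all 3 controls, and those under siRNA.2 lay above those under siRNA.1. The fitted log2 fold change was 0.89 (SE 0.04, adjusted p = 9.13e-109) under siRNA.1 and 1.03 (SE 0.04, adjusted p = 1.96e-145) under siRNA.2, or 1.86-fold and 2.04-fold. WARS1 shares 4.52% of its exonic bases with WDR25 and 6.06% with a lncRNA gene, both on the opposite strand. WDR25 was at 0.05 and 0.40 and did not pass (edgeR adjusted p = 0.898 and 0.0756). The level of AARS1, the alanyl-tRNA synthetase, was 21.9, 22.2 and 22.4 FPKM in the controls, 35.3, 35.1 and 32.4 under siRNA.1 and 33.7, 35.3 and 33.9 under siRNA.2. Knockdown and control libraries did not overlap, and those of the 2 siRNAs did. AARS1 rose by 0.60 (SE 0.04, adjusted p = 2.88e-43) under siRNA.1 and 0.62 (SE 0.04, adjusted p = 1.71e-46) under siRNA.2 on the log2 scale.

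SARS1, the seryl-tRNA synthetase, was measured at 44.1, 46.8 and 44.2 FPKM in the controls, 64.7, 63.2 and 62.7 under siRNA.1 and 68.1, 65.5 and 65.8 under siRNA.2. Its 6 knockdown libraries again lay above every control, with a log2 fold change of 0.47 (SE 0.04, adjusted p = 7.14e-24) under siRNA.1 and 0.55 (SE 0.04, adjusted p = 3.8e-33) under siRNA.2. CARS1, which charges cysteine, stood at 8.74, 8.89 and 9.02 FPKM in the controls, 13.4, 11.9 and 12.9 under siRNA.1 and 12.04, 12.5 and 12.3 under siRNA.2, so that the lowest knockdown library was well above the highest control. CARS1 rose by 0.49 (SE 0.05, adjusted p = 3.6e-19) under siRNA.1 and 0.45 (SE 0.05, adjusted p = 1.95e-16) under siRNA.2. FARSA and FARSB encode the subunits of the phenylalanyl-tRNA synthetase and rose with both siRNAs, FARSA by 0.30 and 0.37 and FARSB by 0.20 and 0.39. Besides GARS1, described below, the remaining free enzymes that rose with both were HARS1 (0.33 and 0.37), YARS1 (0.34 and 0.21) and NARS1 (0.16 and 0.17), which charge histidine, tyrosine and asparagine. HARS1 was the least abundant cytosolic member, at 5.61, 5.68 and 5.43 FPKM in the controls, 7.81, 6.63 and 6.98 under siRNA.1 and 7.62, 6.98 and 7.21 under siRNA.2, without overlap between controls and knockdown. The adjusted p of these 5 genes was at most 0.0023 in either comparison. On the opposite strand, HARS1 shares 7.70% of its exonic bases with WDR55 and YARS1 shares 4.05% with S100PBP. WDR55 fell with both siRNAs, at -0.31 and -0.32. S100PBP was at -0.12 under siRNA.1 (edgeR adjusted p = 0.395) and fell, at -0.33, under siRNA.2 (0.0031).

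VARS1 and TARS1 were the free enzymes that did not rise with both. VARS1, for valine, was at 16.0, 14.6 and 14.6 FPKM in the controls, 15.3, 15.9 and 14.8 under siRNA.1 and 17.3, 18.1 and 18.2 under siRNA.2: the controls and siRNA.1 overlapped, and siRNA.2 lay above both. The fitted log2 fold change was 0.00 under siRNA.1 (95% interval -0.11 to 0.11, adjusted p = 0.996) and 0.24 under siRNA.2 (SE 0.05, adjusted p = 0.000109). TARS1 (ENSG00000113407, chromosome 5, 33440696 to 33468091, plus strand), for threonine, was the most abundant of all members, at 193, 194 and 198 FPKM in the controls, 188, 188 and 191 under siRNA.1 and 186, 190 and 190 under siRNA.2. Every knockdown library of TARS1 lay below every control, but by little: its log2 fold change was -0.07 (95% interval -0.14 to 0.00, adjusted p = 0.139) under siRNA.1 and -0.06 (-0.13 to 0.01, adjusted p = 0.246) under siRNA.2, and neither passed the test. In FPKM, 17 of 20 cytosolic genes had all 6 knockdown libraries above all controls (14.3% of genes tested), and 2, QARS1 and TARS1, had all 6 below (11.7%).

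The enzymes that supply both compartments from a single gene rose with both siRNAs. GARS1, the glycyl-tRNA synthetase, was at 28.4, 28.6 and 29.4 FPKM in the controls, 40.2, 38.2 and 37.6 under siRNA.1 and 43.1, 44.7 and 43.6 under siRNA.2. The 3 groups did not overlap, under siRNA.2 highest, and the log2 fold change was 0.40 (SE 0.04, adjusted p = 6.28e-24) under siRNA.1 and 0.60 (SE 0.04, adjusted p = 4.97e-53) under siRNA.2. KARS1, the lysyl-tRNA synthetase, was at 55.1, 55.1 and 55.1 FPKM in the controls, 71.5, 77.1 and 75.8 under siRNA.1 and 70.9, 73.8 and 74.0 under siRNA.2. Its controls agreed to within 0.1 FPKM, all knockdown libraries were higher, and the siRNAs overlapped. KARS1 rose by 0.41 (SE 0.04, adjusted p = 3.08e-20) under siRNA.1 and 0.39 (SE 0.04, adjusted p = 1.46e-18) under siRNA.2. KARS1 shares 4.34% of its exonic bases with TERF2IP on the opposite strand, a gene that also rose with both siRNAs, and the strand setting of the counting is not given in the sources used here.

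In the multi-synthetase complex, 5 of the 8 enzymes rose and 1 fell under siRNA.1, and 7 rose and 1 fell under siRNA.2. Of all genes tested, 15.1% rose and 15.2% fell under siRNA.1, and 15.8% and 15.2% under siRNA.2. KARS1, described above, was among the enzymes that rose with both. MARS1 (methionine) rose by 0.47 and 0.39, EPRS1 (glutamate and proline) by 0.30 and 0.44, IARS1 (isoleucine) by 0.19 and 0.31 and LARS1 (leucine) by 0.16 and 0.28, with adjusted p at most 0.00302. QARS1 (ENSG00000172053, chromosome 3, 49095932 to 49105130, minus strand) went the other way, at 24.3, 24.9 and 25.9 FPKM in the controls, 20.3, 20.2 and 18.1 under siRNA.1 and 19.3, 20.3 and 19.2 under siRNA.2. Every knockdown library of QARS1 lay below every control, and its log2 fold change was -0.39 (SE 0.05, adjusted p = 1.62e-11) under siRNA.1 and -0.36 (SE 0.05, adjusted p = 1.4e-10) under siRNA.2. RARS1 (arginine) passed the test under siRNA.2 (0.14, adjusted p = 0.0149) and not under siRNA.1 (0.06, adjusted p = 0.427), while the difference between the siRNAs did not pass (adjusted p = 0.318). Under siRNA.2, its call was lost without control siRNA replicate 1 (0.123) or PARylator siRNA.2 replicate 2 (0.0939).

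Of the 3 scaffold genes of the complex, 2 rose under siRNA.1 and 3 under siRNA.2, where 15.1% and 15.8% of all genes rose. AIMP2 rose by 0.41 and 0.33 and AIMP1 by 0.21 and 0.44 under siRNA.1 and siRNA.2. EEF1E1 was at 0.07 under siRNA.1 (adjusted p = 0.619) and rose by 0.22 under siRNA.2 (adjusted p = 0.0443). MARS1 lies beside DDIT3, an ATF4 target that rose by 1.22 and 1.11, and shares 5.05% of its exonic bases with it on the opposite strand and 7.38% with ARHGAP9.

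**Figure D2:**
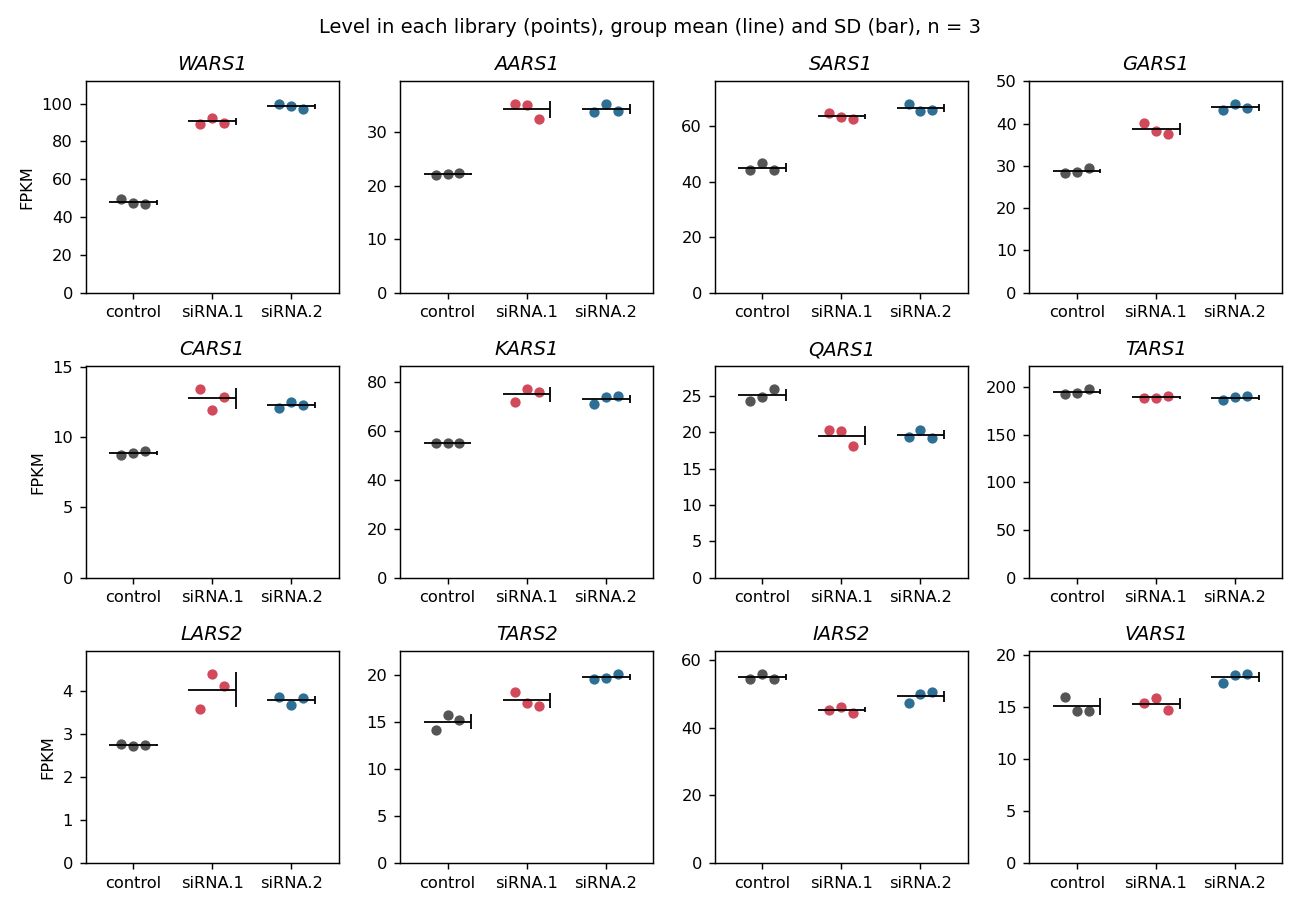
FPKM of 12 synthetase genes in each library (y axis, from 0), by siRNA (x axis); points are libraries, lines are group means and bars are SDs (n = 3). WARS1, AARS1, SARS1, GARS1, CARS1, KARS1, LARS2 and TARS2 lie above control with both siRNAs, QARS1 and IARS2 lie below, TARS1 is nearly level, and VARS1 is higher under siRNA.2 than in the other groups.

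Of the 12 synthetase genes known as targets of ATF4 or the amino acid response, 11 rose with each siRNA, all but TARS1. In the whole cytosolic class 15 of 20 rose under siRNA.1 and 18 of 20 under siRNA.2, and of all genes tested 15.1% and 15.8%. The difference between this list and the other cytosolic genes was not tested. ATF4 binds the C/EBP-ATF response element, searched here as TGATGNAA on both strands. RefSeq promoters (GRCh38.p14, 250 bases before to 50 after the start) were found for 16 cytosolic and 14 mitochondrial genes, and AARS2, LARS1, VARS1, VARS2 and YARS1 were among those not found. Only 1 start per gene was searched, so any other starts of a gene, WARS1 included, were not covered. The element stood in 6 of 16 cytosolic promoters (37.5%), in 1 of 14 mitochondrial ones (7.14%, YARS2) and in 3.67% of 27305 promoters of the same length. All 6 cytosolic matches read TGATGCAA or, on the other strand, TTGCATCA. The element begins at -187 in AARS1, -2 in CARS1, -13 in IARS1, -4 in MARS1, +15 in NARS1 and +3 in TARS1. These 6 promoters are shown, with those of WARS1 and QARS1, the genes that rose most and fell, which held no such match in their whole windows. Each line gives 100 bases, 5′ to 3′ on the gene's strand, from -70 to +30 of the start (AARS1 from -220 to -121), with the element in capitals.
AARS1: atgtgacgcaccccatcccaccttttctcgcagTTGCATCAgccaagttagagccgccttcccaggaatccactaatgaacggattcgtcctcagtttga
CARS1: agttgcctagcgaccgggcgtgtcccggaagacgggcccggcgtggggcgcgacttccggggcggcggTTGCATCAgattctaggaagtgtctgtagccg
IARS1: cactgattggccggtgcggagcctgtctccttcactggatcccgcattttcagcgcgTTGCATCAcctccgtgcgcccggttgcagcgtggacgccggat
MARS1: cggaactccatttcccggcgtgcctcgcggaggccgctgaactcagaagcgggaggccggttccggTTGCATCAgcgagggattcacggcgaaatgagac
NARS1: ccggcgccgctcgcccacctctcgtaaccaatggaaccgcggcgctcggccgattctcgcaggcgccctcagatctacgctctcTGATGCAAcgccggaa
TARS1: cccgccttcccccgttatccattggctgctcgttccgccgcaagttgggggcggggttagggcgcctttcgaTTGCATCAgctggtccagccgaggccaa
WARS1: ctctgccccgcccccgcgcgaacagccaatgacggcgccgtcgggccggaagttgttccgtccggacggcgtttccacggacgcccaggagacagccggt
QARS1: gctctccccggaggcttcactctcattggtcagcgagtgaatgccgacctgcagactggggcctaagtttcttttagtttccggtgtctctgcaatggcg
In the order shown, the stretches lie at chr16:70289627-70289726 (minus strand), chr11:3057394-3057493 (minus strand), chr9:92293668-92293767 (minus strand), chr12:57487998-57488097 (plus strand), chr18:57621807-57621906 (minus strand), chr5:33440895-33440994 (plus strand), chr14:100376298-100376397 (minus strand) and chr3:49104728-49104827 (minus strand). Of the cytosolic genes with the element, AARS1, CARS1, IARS1, MARS1 and NARS1 rose with both siRNAs and TARS1 did not pass the test. Of those searched without a match, EPRS1, FARSA, FARSB, GARS1, HARS1, KARS1, SARS1 and WARS1 also rose with both. QARS1 fell with both, and RARS1 rose under siRNA.2 only. Whether the element bears on the rise was not tested. Elements of the interferon response were searched in the same windows. GAAA followed by GAAA after any 2 bases (the interferon-stimulated response element) stood in none of the 16 cytosolic promoters, 1 of the 14 mitochondrial ones (EARS2) and 3.65% of all promoters, and TTCNNNGAA (the gamma-activated site) in 2 (CARS1 and TARS1), 2 (PARS2 and WARS2) and 7.88%. None of the matches in CARS1 and TARS1 overlap between the motifs. A match is a run of letters and not a measured binding site.

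In the mitochondrial class, LARS2 and TARS2 rose with both siRNAs and IARS2 fell with both. LARS2 (ENSG00000011376, chromosome 3, 45388561 to 45554726, plus strand), for leucine, was at 2.77, 2.71 and 2.73 FPKM in the controls, 3.58, 4.39 and 4.11 under siRNA.1 and 3.85, 3.68 and 3.83 under siRNA.2. All knockdown libraries lay above the controls, and the log2 fold change was 0.53 (SE 0.08, adjusted p = 6.48e-11) under siRNA.1 and 0.46 (SE 0.07, adjusted p = 1.37e-08) under siRNA.2. TARS2, for threonine, was at 14.2, 15.8 and 15.2 FPKM in the controls, 18.3, 17.01 and 16.7 under siRNA.1 and 19.6, 19.7 and 20.2 under siRNA.2, again without overlap with the controls and highest under siRNA.2. TARS2 rose by 0.18 (SE 0.06, adjusted p = 0.018) under siRNA.1 and 0.39 (SE 0.06, adjusted p = 2.71e-09) under siRNA.2. Under siRNA.1 this call was lost without control siRNA replicate 1 (adjusted p = 0.138) or PARylator siRNA.1 replicate 1 (0.149).

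IARS2 (ENSG00000067704, chromosome 1, 220094132 to 220148041, plus strand), for isoleucine, was by far the most abundant mitochondrial member, at 54.3, 55.9 and 54.5 FPKM in the controls, 45.4, 46.1 and 44.5 under siRNA.1 and 47.3, 49.95 and 50.5 under siRNA.2. Every knockdown library lay below every control, under siRNA.1 lowest. IARS2 fell with a log2 fold change of -0.31 (SE 0.05, adjusted p = 2.24e-10) under siRNA.1 and -0.17 (SE 0.04, adjusted p = 0.000955) under siRNA.2. VARS2 was the least abundant, at 0.280, 0.10 and 0.140 FPKM in the controls, 0.110, 0.170 and 0.260 under siRNA.1 and 0.180, 0.10 and 0.190 under siRNA.2, which were only 10 to 29 counts. The groups overlapped, the 95% intervals ran from -0.85 to 0.92 and from -1.05 to 0.71, and a change of VARS2 was not detectable at this depth. VARS2 shares 63.0% of its exonic bases with a lncRNA gene on the same strand, and SARS2 shares 48.2% with a protein-coding gene on the same strand, so counts of both are uncertain.

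The other mitochondrial genes changed with 1 siRNA or neither. AARS2 (alanine) rose by 0.37 under siRNA.2 (adjusted p = 0.00255) and was at 0.26 under siRNA.1 (adjusted p = 0.0502). MARS2 (methionine) and WARS2 (tryptophan) rose under siRNA.2 by 0.30 (adjusted p = 0.0151) and 0.28 (0.0288), and were at -0.07 and 0.20 under siRNA.1. Between the siRNAs, the difference passed for MARS2 (0.37, adjusted p = 0.0056) and not for AARS2 (0.632), WARS2 (0.742) or CARS2 (0.14). CARS2 (cysteine) fell by 0.20 under siRNA.1 (adjusted p = 0.0419) and was at -0.02 under siRNA.2. These calls were narrow. MARS2 was lost without control siRNA replicate 2 (adjusted p = 0.0899) and without PARylator siRNA.2 replicate 1 (0.0565) or 3 (0.104). WARS2 was lost without control siRNA replicate 1 (0.271) or 2 (0.0575) and without PARylator siRNA.2 replicate 3 (0.295), with DESeq2 (0.0741) and with limma (0.0797 and 0.0856 at pseudocounts of 0.1 and 1). AARS2 was lost with limma (0.0502 and 0.0562). CARS2 was lost without control siRNA replicate 2 (0.17) or 3 (0.111) and without PARylator siRNA.1 replicate 1 (0.0964) or 2 (0.138), and with DESeq2 (0.0518). No change passed for EARS2, FARS2, HARS2, NARS2, PARS2, RARS2, SARS2, VARS2 and YARS2, and this does not show that they were unaltered: the 95% interval of SARS2 under siRNA.1 ran from -0.83 to -0.01, that of FARS2 from -0.43 to 0.08 and that of HARS2 from -0.17 to 0.18.

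The direct comparison of the siRNAs gave 6 cytosolic genes higher and 1 lower under siRNA.2 than siRNA.1, and 4 mitochondrial genes higher and 0 lower, where 6.21% of all genes were higher and 6.13% lower. The count of 0 was the same at an unadjusted p under 0.05, with DESeq2 and with limma. Among the genes with the smallest adjusted p-values were GARS1 (0.20, SE 0.04, adjusted p = 7.7e-06), VARS1 (0.24, SE 0.05, 0.000308) and WARS1 (0.14, SE 0.04, 0.00518). All 3 are cytosolic and were higher under siRNA.2. YARS1 was the member that was lower (-0.14, adjusted p = 0.0274), and its call was lost without PARylator siRNA.1 replicate 1 (0.075) or 3 (0.12) and without PARylator siRNA.2 replicate 1 (0.161) or 3 (0.0769). Without PARylator siRNA.2 replicate 2 only 3 cytosolic genes were higher, and the mitochondrial count was 2 without PARylator siRNA.1 replicate 3 and 1 without PARylator siRNA.2 replicate 3.

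The summed levels showed the same contrast between the classes. The 20 cytosolic genes summed to 759 ± 8.99 FPKM (SD, n = 3) in the controls, 920 ± 2.73 under siRNA.1 and 946 ± 7.63 under siRNA.2, which is 1.21 and 1.25 times control. The 17 mitochondrial genes summed to 161 ± 2.17, 154 ± 2.55 and 170 ± 1.56 FPKM, which is 0.960 and 1.06 times control. The ratio of the sums was 4.72 ± 0.0165 in the controls, 5.96 ± 0.106 under siRNA.1 and 5.58 ± 0.0881 under siRNA.2, and neither the cytosolic sum nor the ratio of any knockdown library overlapped the controls. The mitochondrial sums did not overlap the controls either, at 152 to 157 FPKM under siRNA.1, 158 to 162 in the controls and 168 to 171 under siRNA.2. The sums depend on their most abundant genes. TARS1 made up 25.5% to 25.8% of the cytosolic sum in the controls, 20.4% to 20.8% under siRNA.1 and 19.8% to 20.1% under siRNA.2. Without TARS1, the cytosolic sum was 1.30 and 1.34 times control. Without IARS2, the mitochondrial sum was 1.03 and 1.14 times control, so that the direction under siRNA.1 turned on IARS2 alone.

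**Figure D3:**
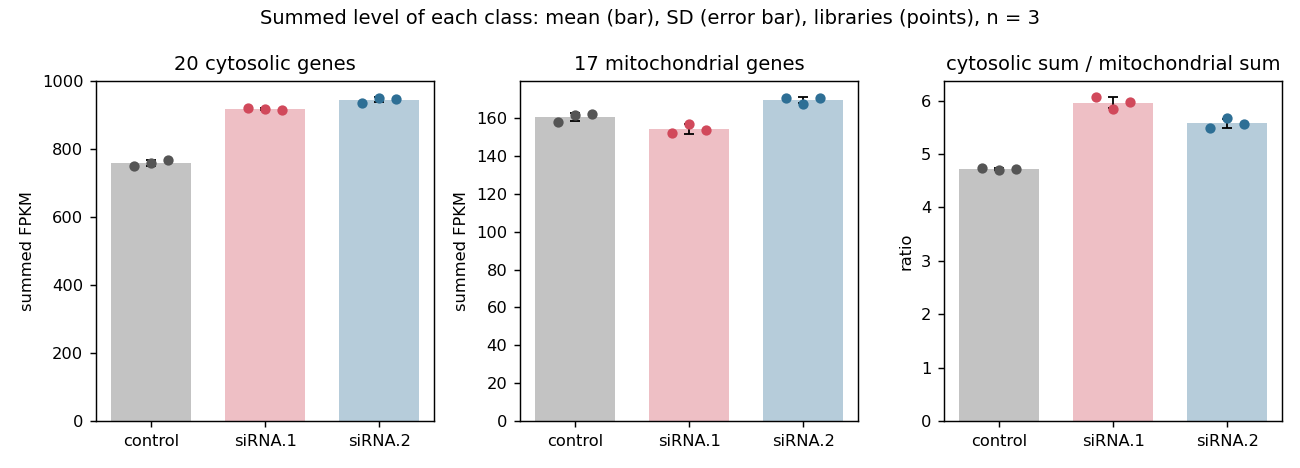
Summed FPKM of the 20 cytosolic and of the 17 mitochondrial genes, and the ratio of the sums (y axes, from 0), by siRNA; bars are means, error bars SDs and points libraries (n = 3). The cytosolic sum rises from 759 to 920 and 946 FPKM, while the mitochondrial sum stays between 154 and 170 FPKM in the group means.

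For 13 amino acids a cytosolic and a mitochondrial gene were paired, and the log2 ratio of their FPKM was taken in each library, so that scaling between libraries cancels. The ratio lay above all controls for 8 pairs under siRNA.1 and 7 under siRNA.2, and below all controls for 2 pairs with each, with a median change of 0.34 and 0.25. An exact permutation test of 3 against 3 libraries cannot go below p = 0.1, so none is given. Tryptophan (WARS1 over WARS2) went from a log2 ratio of 3.34 ± 0.24 (SD, n = 3) to 4.02 ± 0.03 and 4.09 ± 0.17, and cysteine (CARS1 over CARS2) from 1.17 ± 0.07 to 1.86 ± 0.09 and 1.65 ± 0.09. Isoleucine (IARS1 over IARS2) went from -1.76 ± 0.02 to -1.26 ± 0.03 and -1.28 ± 0.05, as its cytosolic gene rose and its mitochondrial gene fell. The largest change, 0.89 and 0.78 for serine, rests on the uncertain counts of SARS2. Leucine and threonine went the other way with both siRNAs, by -0.37 and -0.18 for LARS1 over LARS2 and by -0.25 and -0.45 for TARS1 over TARS2.

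**Figure D4:**
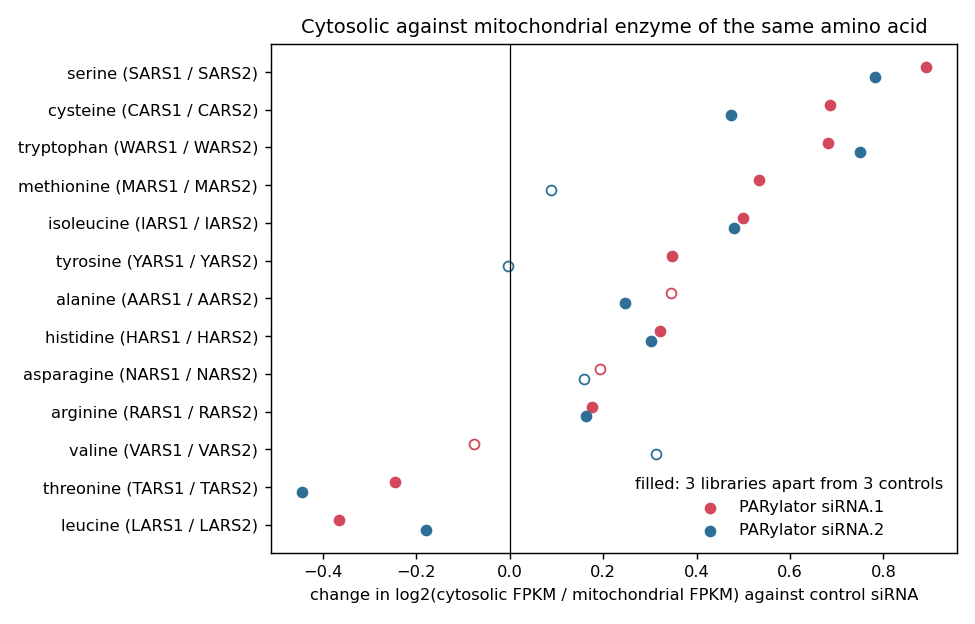
Change against control siRNA in the log2 ratio of cytosolic to mitochondrial FPKM for 13 amino acids (x axis; group means, n = 3), for both siRNAs; filled points have all 3 knockdown libraries on the same side of all 3 controls. Serine, tryptophan and cysteine lie farthest to the right under siRNA.1, at 0.89, 0.68 and 0.69, and leucine and threonine lie left of 0 with both siRNAs.

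Other genes of tRNA charging and translation were read from lists, beside the 15.1% of all genes that rose and 15.2% that fell under siRNA.1, and 15.8% and 15.2% under siRNA.2. Mitochondria make glutaminyl-tRNA through EARS2 and the amidotransferase GATB, GATC and QRSL1, and formylate the initiator through MTFMT: none of these 4 partners passed edgeR's test with either siRNA, nor with DESeq2 or limma, with log2 fold changes between -0.12 and 0.17. At an unadjusted p under 0.05, 0 passed under siRNA.1 and 1 (GATC, higher) under siRNA.2. Of 9 mitochondrial tRNA processing and modification genes, 2 rose under siRNA.1 and 6 under siRNA.2. None fell by any of the 3 tools, and 1 (PRORP) was lower at an unadjusted p under 0.05 under siRNA.2. PUS1, a pseudouridine synthase, rose by 0.51 and 0.44. Of 9 mitochondrial translation factors, 2 rose and 1 fell under siRNA.1, and 3 rose and 1 fell under siRNA.2. The initiation factor MTIF2 rose by 0.48 and 0.57, the elongation factor TUFM by 0.16 and 0.28, and the release factor MTRF1 fell, at -0.86 and -0.86. Of 78 mitochondrial ribosomal protein genes, 30 rose and 2 fell under siRNA.1, and 39 rose and 0 fell under siRNA.2, with medians of 0.12 and 0.18.

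Of 11 other tRNA handling genes tested, not all of them purely cytosolic, 3 rose and 0 fell under siRNA.1, and 5 rose and 2 fell under siRNA.2. The count of 0 was the same with DESeq2, with limma and at an unadjusted p under 0.05. XPOT, the export factor of tRNA from the nucleus, rose by 0.19 and 0.35 and YRDC, which makes the threonylcarbamoyl group of tRNA, by 0.43 and 0.54. NSUN2, a tRNA cytosine methyltransferase, was at 0.02 under siRNA.1 (adjusted p = 0.82) and fell, at -0.43, under siRNA.2 (adjusted p = 2.19e-24). Of 8 cytosolic translation factors tested, 4 rose and 3 fell under siRNA.1, and 5 rose and 1 fell under siRNA.2. EEF1D, a subunit of the elongation factor complex that exchanges guanine nucleotides, rose by 0.34 and 0.29, and its partner EEF1B2 fell, at -0.27 and -0.15. The share of cytosolic synthetases that rose was thus above that of both these lists, a description for which no test was made.

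Regulators and targets of the amino acid response stood beside the cytosolic synthetases, with 5 of 7 higher under siRNA.1 and 6 of 7 under siRNA.2. Of all genes tested, 15.1% and 15.8% were higher. ATF4 itself rose by 0.25 and 0.36, its targets DDIT3 by 1.22 and 1.11, CHAC1 by 1.00 and 1.02, TRIB3 by 0.85 and 0.58 and ASNS, the asparagine synthetase, by 0.66 and 0.87. EIF2AK4, the kinase that senses uncharged tRNA, was at -0.03 and -0.01 and did not pass. Of 5 interferon response genes listed beside WARS1, 4 rose and 1 fell with both siRNAs, where 11.0% and 10.2% of all genes did. GBP1, a guanylate-binding protein, rose by 1.24 and 1.36, IDO1, which breaks down tryptophan, by 2.22 and 2.39 and CXCL10 by 3.45 and 3.75, and IRF1 fell, at -0.31 and -0.24. Whether WARS1 followed the amino acid response or the interferon response was not tested.

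With control siRNA, the cytosolic genes were the more abundant class, with a median of 26.9 FPKM against 6.20 FPKM for the mitochondrial genes. TARS1 came first at 195 FPKM, followed by KARS1 (55.1), IARS2 (54.9) and EPRS1 (54.1). Control libraries of IARS2 overlapped those of KARS1 and EPRS1, while every KARS1 library (55.1) lay above every EPRS1 library (52.8 to 54.8). The order depends on the length used, because the deposited exonic lengths hold every annotated exon of a gene, 7.13 times the Ensembl canonical transcript for GARS1 and 7.27 times for HARS1. On the length of the canonical transcript, TARS1 stayed first, GARS1 moved from rank 11 to rank 2 and IARS2 from rank 3 to rank 12, and the class medians were 65.8 and 8.37 FPKM. Fold changes of a gene do not depend on this length.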

How the data were processed

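Poly(A)+ RNA of 9 TE13 libraries, 3 for each siRNA, was measured. The authors used FastQC for quality control, STAR for alignment to the human genome (GRCh38 per the labels) and featureCounts for gene counts. Versions, annotation release and strand setting are not given in the sources used here. The authors deposited raw counts per gene, not normalized, and FPKM, which the counts and the deposited exonic lengths returned to within 0.005. Annotation columns of the table were used only for symbols and positions. Groups followed the sample titles.

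Counts of the 21397 genes that averaged 0.1 FPKM or more were tested with edgeR 4.0.16 in R 4.3.3 (TMM scaling, robust quasi-likelihood fit of the 3 groups, no covariates), with Benjamini-Hochberg adjustment over all genes and calls at 0.05. Standard errors are log2 fold changes, without sign, over the root of the F statistic. Sums and pair ratios used deposited FPKM without a test. DESeq2 1.42.0, the tool of the study, and limma 3.58.1 on log2(FPKM + 0.1) or log2(FPKM + 1) were alternatives, with other scalings, filters, a replicate block and each library left out. Fits were tested on simulated data. Libraries of a group differed by more than sampling noise (chi-square per degree of freedom 2.76 to 4.62), so they were not taken as the same library counted again. This check cannot tell separate cultures from separate preparations of the same culture. Each counted as a sample because the series describes biological replicates, and p-values measure the spread between these libraries. Total counts set the precision, and counts cover counting error only.

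The genes, lists and tests were chosen with earlier results of these data known, and the lists were written from general knowledge. Described library by library are, per class and direction, up to 5 genes with the largest mean change among those called with both siRNAs and without overlap with the controls, up to 4 with the smallest adjusted p between siRNAs, WARS1, GARS1 and KARS1, and the most and least abundant gene of each class. Some genes are counted in the classes and lists but not reported here by name, and the pair ratio of 1 amino acid was left out with them. Exon overlaps and canonical lengths came from GENCODE release 44, where 33 of 37 genes have the same start and end. Promoters came from RefSeq (GRCh38.p14).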

Additional observations from a re-analysis of the deposited data

Results flagged for a closer look

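The 10 comparisons below between the siRNAs are listed because the level of a synthetase gene under siRNA.2 differed from that under siRNA.1 in edgeR's quasi-likelihood test, at an adjusted p under 0.05. On the log2 scale, siRNA.2 was above siRNA.1 by 0.37 for MARS2, 0.24 for VARS1, 0.21 for TARS2, 0.20 for GARS1, 0.19 for FARSB, 0.14 for EPRS1, 0.14 for WARS1, 0.14 for IARS2 and 0.12 for IARS1, and the value for YARS1 was -0.14. GARS1, VARS1 and WARS1 kept their call in every alternative fit and with every library left out. The other 7 lost it in at least 1. The siRNA.2 libraries are also the deeper ones, with 19213164 to 22559998 counts against 15374616 to 17762752 under siRNA.1, and the part of depth in these differences was not tested.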

How the results depend on the processing

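The count of cytosolic genes higher than control (15 and 18) stayed within 1.5 times under every alternative. So did the mitochondrial count higher under siRNA.2, but it ran from 4 to 6 with each library left out. Its calls of AARS2 and WARS2 were lost with limma. The mitochondrial count lower under siRNA.1 went from 2 to 1, by the loss of CARS2, without a filter, with DESeq2, with limma at either pseudocount, with the libraries of the 2 groups only and with the replicate block. Between siRNAs, the cytosolic count lower went from 1 to 0 without a filter, with the replicate block and without genes sharing at least 4% of exonic bases with an opposite-strand gene, and the mitochondrial count higher from 4 to 2 with limma at either pseudocount. Median log2 fold changes depended on the genes included. Without GARS1 and KARS1 the cytosolic median was 0.25 under siRNA.1 and 0.34 under siRNA.2, and without the genes sharing opposite-strand bases 0.20 and 0.34. The mitochondrial median without the latter was -0.10 under siRNA.1 and -0.0248 under siRNA.2, and without VARS2 and SARS2 it was 0.0647 under siRNA.2. As TMM-scaled CPM, the cytosolic sum was 1.23 and 1.29 times control and the ratio under siRNA.2 1.20 times. Without the most abundant gene the cytosolic sums were 1.30 and 1.34 times control, and the mitochondrial ones 1.03 and 1.14 times. The cause of these shifts was not tested, beyond the genes and libraries left out.

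With each library left out in turn, the mitochondrial count under siRNA.1 ran from 1 to 3 higher and from 1 to 2 lower, the mitochondrial median under siRNA.2 from 0.0066 to 0.0974, and between siRNAs the cytosolic counts from 3 to 6 higher and 0 to 1 lower, the cytosolic median from 0.059 to 0.101 and the mitochondrial count from 1 to 4 higher. Values near 0 changed sign and were not called. VARS1 under siRNA.1 was 0.0008 with upper-quartile scaling, 0.0054 without a filter and 0.0258 and 0.0243 with limma. TARS1 between siRNAs was -0.0036 and -0.0035 with limma. With each library left out, ranges were AARS1 between siRNAs from -0.0182 to 0.0447, CARS1 between siRNAs from -0.0897 to 0.0016, HARS1 between siRNAs from -0.0134 to 0.114, KARS1 between siRNAs from -0.048 to 0.0112, QARS1 between siRNAs from -0.0293 to 0.0558, VARS1 under siRNA.1 from -0.024 to 0.042, VARS2 under siRNA.1 from -0.3152 to 0.5639, VARS2 under siRNA.2 from -0.4415 to 0.357 and VARS2 between siRNAs from -0.4555 to 0.1462.

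Same-numbered libraries did not deviate together (correlations from -0.193 to 0.107, and in 4 of 18 comparisons of a library with another group the closest library had its own number, over 11156 genes), so the replicate numbers were not taken to pair the samples. With the replicate block, 15 and 18 cytosolic and 2 and 6 mitochondrial genes were higher than control. VARS2, with 10 to 29 counts, is where depth limits most.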

Other observations

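By structural class, 9 of the 18 class II synthetases rose under siRNA.1 and 12 under siRNA.2, and 0 fell by edgeR, DESeq2 or limma, with 1 lower at an unadjusted p under 0.05 under siRNA.1. Of the 19 class I synthetases, 8 rose and 3 fell under siRNA.1 and 12 rose and 2 fell under siRNA.2. Of all genes tested, 15.1% rose and 15.2% fell under siRNA.1, and 15.8% and 15.2% under siRNA.2, so that the share of class I genes that fell was near that of all genes under siRNA.1 and below it under siRNA.2. The classes differ in the fold of the catalytic domain and hold cytosolic and mitochondrial genes alike, and the difference between them was not tested.

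TARS3, a cytosolic threonyl-tRNA synthetase gene outside the naming rule used for the 37 genes, was at -0.05 under siRNA.1 (adjusted p = 0.846) and fell, at -0.53, under siRNA.2 (edgeR adjusted p = 0.00125). Its mean level was 2.57 FPKM in the controls, 2.54 under siRNA.1 and 1.80 under siRNA.2, so TARS1, at 195 FPKM in the controls, held nearly all cytosolic threonyl-tRNA synthetase reads.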
